A study of Mus musculus with 48 samples.

Results

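The difference in messenger RNA between 2 thigh muscles and 2 shank muscles of the mouse hindlimb was compared between late fetal life and adulthood, to tell position-dependent genes that last from those lost or gained after birth. The thigh muscles were vastus intermedius and vastus lateralis, and the shank muscles were soleus and gastrocnemius. The contrast was the mean of the vasti less the mean of soleus and gastrocnemius, taken in late embryos (E18.5, in days of embryonic life) and in adults, and the stage difference was the adult contrast less the E18.5 contrast. All animals were male mice of the inbred strain FVB/NJ, for which the labels name no genetic change or treatment, 6 per stage, and each gave 1 library of each muscle. The 4 libraries of 1 animal are called a collection and lettered A to F within a stage. The contrasts used 47 of the 48 libraries, 6 in each of 7 groups and 5 in adult vastus intermedius. The adult age is given in 2 ways that differ, as postnatal day 56 in the series text and as 3 to 4 months when obtained in the labels' protocols. Fewer cells of a type and less RNA per cell cannot be told apart in these bulk samples.

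The hindlimb is patterned along its length by the Hox genes, homeobox transcription factors in 4 clusters whose members are switched on in the order in which they lie, with the higher-numbered ones marking the more distal parts. T-box factors add the identity of the limb, Tbx4 in the hindlimb bud and Tbx5 in the forelimb bud. Connective tissue cells and muscle cells both keep traces of this code. The vasti are extensors on the front of the thigh and soleus and gastrocnemius are extensors of the ankle on the back of the shank, so the contrast also holds front against back, and position along the limb and position around it cannot be told apart. Soleus and vastus intermedius are the slower muscles of each segment, with more fibres that use slow myosin and oxidative metabolism, and gastrocnemius and vastus lateralis are the faster. Each contrast was therefore also read within the slower pair (vastus intermedius less soleus) and within the faster pair (vastus lateralis less gastrocnemius).

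The libraries held between 14.9 and 32.4 M counts each (median 22.9 M). The library left out, labelled adult vastus intermedius, stood apart, with the embryonic myosin Myh3 at 8923 CPM (counts scaled to the library's total) and the fetal growth factor Igf2 at 8352 CPM, whereas in the remaining 5 adult vastus intermedius libraries Myh3 ran from 6.19 to 22.8 CPM. Its Tbx5 was 5.76 CPM and its Hand2 was 0 CPM. Adult muscles carried the myosins of their labels, since slow Myh7 made up 58.2% ± 6.24 (SD, n = 6) of 6 myosin heavy chain transcripts in soleus and fast Myh4 made up 99.1% ± 0.754 in vastus lateralis and 91.9% ± 6.01 in gastrocnemius. Adult vastus intermedius varied more than the other muscles, with Myh4 at 25.4% ± 22.8 (SD, n = 5) and Myh7 between 3.51% and 24.5%.

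Enough counts to be tested were found for 16402 of the 27179 genes. At E18.5 2907 genes (17.7% of those tested) differed between thigh and shank at an adjusted p under 0.05 in edgeR's quasi-likelihood test, of which 2173 were higher in the thigh and 734 lower. In adults 3251 genes (19.8%) differed, 1675 higher and 1576 lower. The contrast itself changed with stage in 1814 genes (11.1%), 491 towards the thigh and 1323 towards the shank. The share of E18.5 calls that were higher in the thigh was 74.8% and moved to 66.0% with DESeq2 and 61.3% with limma-voom, so that share depends on the method. The adult count was 2079 without adult collection E, and the E18.5 count was 1863 with all 48 libraries, 1517 higher and 346 lower. The adult calls with all 48 libraries were 1261 higher and 978 lower.

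Genes were then sorted by these tests. A gene was called lasting if both stages passed in the same direction. This held for 808 genes (4.93% of those tested, 640 higher and 168 lower in the thigh). A lasting contrast can still change in size. The stage difference passed in 67 of the 808, with a smaller adult contrast in 49 and a larger one in 18. In adults 634 of the 808 were called in the slower pair, 146 in the faster pair and 65 in both. Most adult calls of this class were thus seen in the slower pair, whose muscles differ in fibre type. A gene was called lost if E18.5 and the stage difference passed and the adult contrast did not, and 703 genes (4.29%) met this. An adult average near 0 can hold pairs that differ in opposite directions. The adult signs of the slower and the faster pair were opposite in 411 of the lost genes. In adults 121 lost genes were called in the slower pair and 52 in the faster. Gained genes passed in adults and in the stage difference but not at E18.5, and numbered 793 (4.83%). Reversed genes passed at both stages in opposite directions, and there were 140 (0.854%). A further 1256 genes passed at E18.5 and 1510 in adults with no called stage difference, and for these the data do not tell whether the contrast differs between stages. With all 48 libraries 307 genes were lasting and 78 were reversed, and without adult collection E 480 genes were gained.

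**Figure D1:**
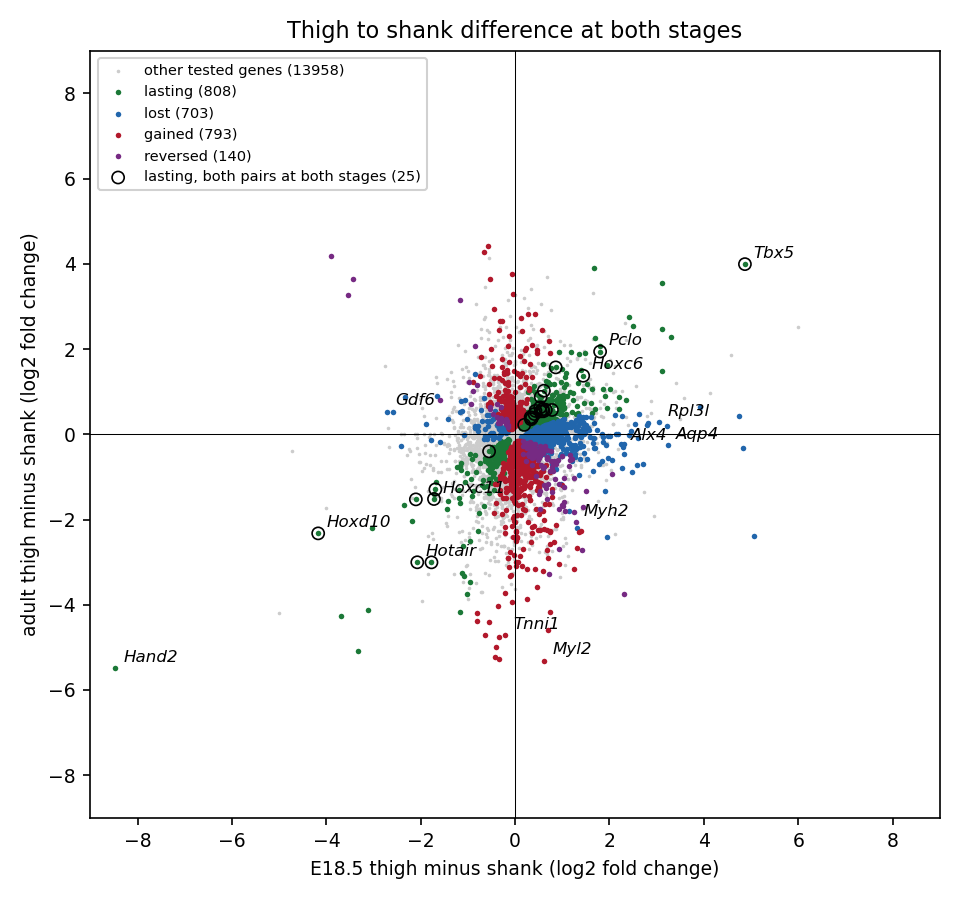
Thigh minus shank difference of each tested gene at E18.5 (horizontal axis, log2) and in adults (vertical axis, log2), coloured by class, with the 25 genes that lasted in both muscle pairs circled. Tbx5 lies at the upper right at 4.87 and 3.99, Hoxd10 and Hotair lie at the lower left, and the slow sarcomere genes form the group near 0 at E18.5 and near -5 in adults.

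The levels of the 2 stages differed between classes. Of the 640 lasting genes higher in the thigh 601 (93.9%) had a higher mean CPM in adults than at E18.5, and of the 168 lasting genes lower in the thigh 37 (22%) did. Of the 626 lost genes that were higher in the thigh at E18.5 519 (82.9%) were higher in adults, and 394 (62.9%) by more than 2-fold. Over all tested genes 47.9% were higher in adults and 22.1% by more than 2-fold. In both classes of genes higher in the fetal thigh, most genes were thus at a higher level in adult muscle.

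To find differences that did not rest on 1 pair of muscles, a call was asked for in both pairs at both stages. The pairs are not matched in fibre type, since adult vastus intermedius had less Myh7 than soleus (11.5% on average) and gastrocnemius less Myh4 than vastus lateralis, so position and fibre type cannot be told apart in this way. This held for 25 of the 16402 genes (0.152%), 18 higher and 7 lower in the thigh. At E18.5 alone 5.79% of the tested genes were called in both pairs, and in adults alone 1.79%. They include Tbx5, Hoxc6, Hoxc8, Hoxc10, Pclo, Gpx3, Ptges3l, Ank1, Sar1b, Hras, Plcl2, Jph2, Pals2, Zftraf1, Ecpas, Ctsd and Ube3c, higher in the thigh, and Hoxd9, Hoxd10, Hoxc11, Hotair, Gria4, Casp4 and Tshz2, lower. For each of the 25 the difference had the same sign in all 6 E18.5 animals and all 5 adult animals with 4 libraries, a description of genes chosen for their differences. All 25 remained lasting in every fit that left out 1 collection, but the call in both pairs was less stable, and the number of genes that met the rule was 13 without adult collection B, 15 without adult F, 16 without adult E and 16 without E18.5 collection A. With all 48 libraries it was 15, and it was higher with DESeq2 (35), with limma-voom (39) and with the animal as a replicate block (46).

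Tbx5, the T-box factor of the forelimb bud (gene at chr5:119796514-119885220, build GRCm38.p6), separated thigh from shank in every library. At E18.5 it ran from 0 to 0.307 CPM in soleus (median 0.145) and from 0.0924 to 0.593 in gastrocnemius (median 0.369), against 4.93 to 8.86 in vastus intermedius (median 6.67) and 6.21 to 10.1 in vastus lateralis (median 7.93). In adults it ran from 0 to 0.407 CPM in soleus (median 0.134) and 0 to 0.365 in gastrocnemius (median 0.114), was 1.90, 2.25, 2.77, 3.89 and 4.42 in vastus intermedius, and ran from 1.16 to 4.36 in vastus lateralis (median 2.26). Thigh and shank libraries did not overlap at either stage, and the shank medians were near the level that a few counts give. The difference was 4.87 ± 0.29 (log2, SE) at E18.5, a 29.3-fold ratio (edgeR adjusted p = 1.67e-16), and 3.99 ± 0.34 in adults, 15.9-fold (adjusted p = 1.83e-11). The stage difference of -0.88 ± 0.49 did not pass (adjusted p = 0.284).

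**Figure D2:**
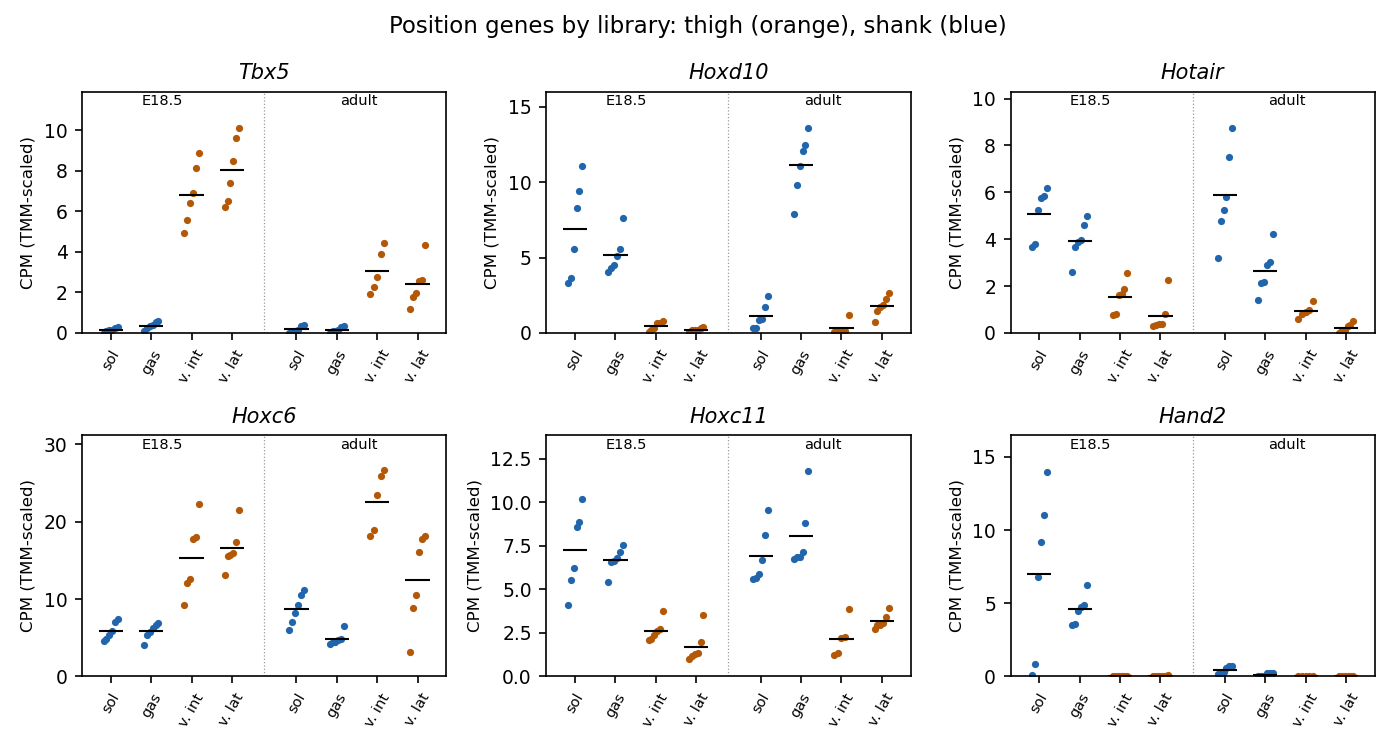
CPM of 6 position genes in each library (vertical axis) by stage and muscle (horizontal axis), thigh muscles in orange, shank muscles in blue, with a bar at the group mean. Tbx5 is high in all thigh libraries at both stages, Hotair and Hoxc11 are high in all shank libraries, and Hand2 is near 0 in all thigh libraries, with a shank level of 3.54 to 6.26 in E18.5 gastrocnemius and at most 0.736 in adults.

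The HoxC cluster kept its contrast almost whole. Of 8 tested members 6 were higher and 2 lower in the thigh at E18.5, and 5 were higher and 2 lower in adults, against 13.2% higher and 4.48% lower over all genes at E18.5 and 10.2% and 9.61% in adults. Lasting members numbered 7, and 5 of them were in the group of 25. The direction split by position in the cluster at both stages, with Hoxc5, Hoxc6, Hoxc8, Hoxc9 and Hoxc10 higher in the thigh and Hoxc11 and the noncoding RNA Hotair higher in the shank. Hoxc4 was the exception, 0.85 at E18.5 (adjusted p = 2.61e-08) and 0.20 in adults (adjusted p = 0.2), with a stage difference that passed (adjusted p = 0.00175).

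Hoxc6 ran at E18.5 from 4.56 to 7.41 CPM in soleus (median 5.64) and 4.02 to 6.88 in gastrocnemius (median 5.99), against 9.20 to 22.2 in vastus intermedius (median 15.1) and 13.1 to 21.5 in vastus lateralis (median 15.8). In adults soleus ran from 5.99 to 11.1 CPM (median 8.72) and gastrocnemius from 4.19 to 6.56 (median 4.53), vastus intermedius was 18.1, 18.9, 23.4, 25.9 and 26.6, and vastus lateralis ran from 3.17 to 18.1 (median 13.3). The groups were apart at E18.5, and in adults only vastus lateralis reached down into the shank range. The difference was 1.44 ± 0.16 at E18.5 (2.72-fold, adjusted p = 6.31e-09) and 1.37 ± 0.17 in adults (2.59-fold, adjusted p = 5.12e-08).

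Hoxc8, its neighbour in the cluster, was a member whose contrast grew. Its medians at E18.5 were 3.26 CPM in soleus, 3.31 in gastrocnemius, 5.95 in vastus intermedius and 6.04 in vastus lateralis. In adults soleus ran from 2.15 to 3.78 CPM and gastrocnemius from 1.92 to 3.70, against 7.47, 8.09, 8.52, 12 and 12.4 in vastus intermedius and 4.42 to 9.41 in vastus lateralis. Adult thigh and shank libraries did not overlap. The difference was 0.86 ± 0.13 at E18.5 and 1.57 ± 0.14 in adults (adjusted p = 5.03e-11), and the stage difference of 0.71 passed (adjusted p = 0.0107).

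Hoxc10 kept its contrast while its median was higher in adults in every muscle. Its medians at E18.5 were 29.2 CPM in soleus, 32.3 in gastrocnemius, 47.4 in vastus intermedius and 46.9 in vastus lateralis. Adult medians were 78.0 CPM in soleus and 176 in gastrocnemius, against 221 in vastus lateralis and values of 100, 110, 116, 131 and 141 in vastus intermedius. The faster muscle was higher than the slower one within each adult segment, so thigh and shank overlapped as groups but not within a pair. The difference was 0.60 ± 0.06 at E18.5 and 0.54 ± 0.07 in adults, and the stage difference was -0.06 ± 0.09 (adjusted p = 0.778).

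Hoxc11 and Hotair, a noncoding RNA transcribed from the HoxC cluster (chr15:102944062-102947946), were higher in the shank. Hoxc11 ran at E18.5 from 4.08 to 10.2 CPM in soleus (median 7.40) and 5.42 to 7.57 in gastrocnemius (median 6.71), against 2.09 to 3.76 in vastus intermedius (median 2.48) and 0.978 to 3.53 in vastus lateralis (median 1.33). Adult levels ran from 5.62 to 9.53 CPM in soleus and 6.75 to 11.8 in gastrocnemius, was 1.21, 1.34, 2.19, 2.24 and 3.86 in vastus intermedius, and ran from 2.71 to 3.93 in vastus lateralis. The segments did not overlap at either stage, with differences of -1.72 ± 0.17 and -1.52 ± 0.18 (adjusted p = 8.38e-10 and 4.19e-08).

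Hotair ran at E18.5 from 3.66 to 6.17 CPM in soleus (median 5.50) and 2.59 to 4.97 in gastrocnemius (median 3.91), against 0.746 to 2.57 in vastus intermedius (median 1.64) and 0.316 to 2.25 in vastus lateralis (median 0.371). In adults it ran from 3.20 to 8.74 CPM in soleus (median 5.54) and 1.41 to 4.23 in gastrocnemius (median 2.54), was 0.607, 0.813, 0.906, 1.00 and 1.38 in vastus intermedius, and ran from 0 to 0.494 in vastus lateralis (median 0.222). Thigh and shank did not overlap, although the highest thigh and lowest shank libraries lay close together. Hotair was lower in the thigh by 2.07 ± 0.26 at E18.5 (4.21-fold, adjusted p = 5.08e-08) and 3.00 ± 0.31 in adults (8.02-fold, adjusted p = 1.71e-09), and the stage difference did not pass (adjusted p = 0.138). No source names a strand setting for the counting, and reads of Hotair cannot be told from those of overlapping HoxC transcripts.

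**Figure D3:**
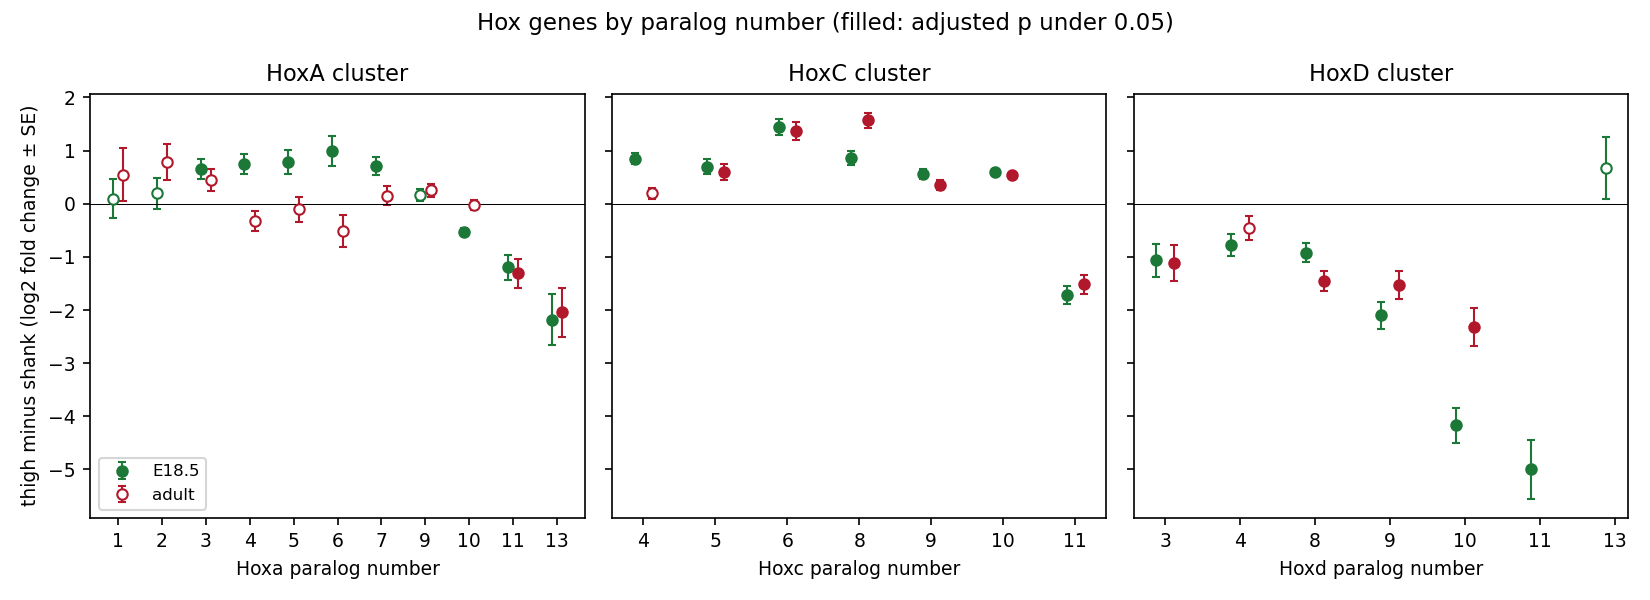
Thigh minus shank difference (vertical axis, log2 ± SE) of HoxA, HoxC and HoxD genes by paralog number (horizontal axis), E18.5 in green and adult in red, filled where the adjusted p was under 0.05; 2 points with a standard error over 1.5 are left out. HoxC numbers up to 10 lie above 0 and 11 below at both stages, the filled HoxD points lie below 0, and the filled low-numbered HoxA points above 0 are E18.5 points.

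The HoxD cluster was higher in the shank. Of 8 tested members 6 were lower in the thigh at E18.5 and 4 in adults, beside 4.48% and 9.61% over all genes. At E18.5 1 was higher (Evx2, at low counts). The 4 lower in adults were lasting: Hoxd3, Hoxd8, Hoxd9 and Hoxd10. The last 2 were in the group of 25. Their promoters are shown because these neighbouring genes moved together and are the only Hox members of that group with an entry in the RefSeq promoter table (build GRCm38.p6), which held 14 of the 25 genes and did not hold Tbx5, Hotair, Hoxc6, Hoxc8, Hoxc10 or Hoxc11. The windows are the 250 bases before the start in the table, on the plus strand, at chr2:74691641-74691890 for Hoxd10 and chr2:74697513-74697762 for Hoxd9. The Hoxd10 window lies within the annotated span of that gene (chr2:74684273-74695106), and so not before the whole gene. Capitals mark matches on either strand of CANNTG, the E-box letters bound by factors such as MyoD, and of GGTGTGA, the letters of the T-box core, which do not overlap each other here.
Hoxd10: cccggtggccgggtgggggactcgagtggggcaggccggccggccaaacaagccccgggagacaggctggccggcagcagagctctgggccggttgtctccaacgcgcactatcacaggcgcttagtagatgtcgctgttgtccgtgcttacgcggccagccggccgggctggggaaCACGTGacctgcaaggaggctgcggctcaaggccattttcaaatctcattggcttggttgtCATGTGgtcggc
Hoxd9: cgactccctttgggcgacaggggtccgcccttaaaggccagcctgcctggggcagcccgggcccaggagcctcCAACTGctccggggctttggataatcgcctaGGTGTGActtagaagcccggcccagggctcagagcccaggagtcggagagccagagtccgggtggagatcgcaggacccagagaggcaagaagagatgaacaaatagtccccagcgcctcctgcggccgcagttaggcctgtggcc
The Hoxd10 window held 2 matches of CANNTG and none of GGTGTGA, and the Hoxd9 window held 1 of each. CANNTG stood in 66.2% of all 32851 windows and GGTGTGA in 3.33%. The shares in windows of lasting genes were 58.3% and 2.43%, of lost genes 64.0% and 3.29%, and of gained genes 61.1% and 2.38%. In the 18 windows of the 14 genes of the group of 25 they were 66.7% and 5.56%, and a match shows only the letters.

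Hoxd10 (gene at chr2:74684273-74695106) had the widest Hox contrast among the 25 genes at E18.5. Fetal levels ran from 3.31 to 11.1 CPM in soleus (median 6.93) and 4.06 to 7.66 in gastrocnemius (median 4.79), against 0.0857 to 0.783 in vastus intermedius (median 0.490) and 0.0357 to 0.424 in vastus lateralis (median 0.205). In adults it ran from 0.326 to 2.43 CPM in soleus (median 0.918) and 7.90 to 13.6 in gastrocnemius (median 11.6), was 0.0625, 0.107, 0.11, 0.112 and 1.17 in vastus intermedius, and ran from 0.704 to 2.66 in vastus lateralis (median 1.80). The segments were apart at E18.5, but adult soleus overlapped adult vastus lateralis, and within each pair the thigh median was the lower one. The difference was -4.17 ± 0.33 at E18.5 (18-fold, adjusted p = 2.48e-12) and -2.33 ± 0.36 in adults (5.01-fold, adjusted p = 5.01e-06). It narrowed with stage, by 1.85 ± 0.50 (adjusted p = 0.0101), one of 2 genes of the 25 with a called stage difference, the other being Hoxc8.

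Hoxd9 ran at E18.5 from 4.95 to 7.82 CPM in soleus (median 6.35) and 2.96 to 6.07 in gastrocnemius (median 4.85), against 0.191 to 2.38 in vastus intermedius (median 1.73) and 0.607 to 1.86 in vastus lateralis (median 1.14). In adults soleus ran from 6.23 to 10.2 CPM (median 6.63) and gastrocnemius from 25.3 to 34.2 (median 31.3), vastus intermedius was 1.06, 1.60, 2.01, 2.29 and 5.83, and vastus lateralis ran from 4.35 to 20.8 (median 10.7). As for Hoxd10, the fast muscle of each adult segment had the higher median, and vastus lateralis overlapped soleus. The difference was -2.10 ± 0.26 at E18.5 and -1.53 ± 0.26 in adults (adjusted p = 4.29e-08 and 2.28e-05), with no called stage difference (adjusted p = 0.349).

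Hoxd11, the next gene in the cluster, was near its detection limit in adults. At E18.5 it ran from 0.746 to 10.8 CPM in soleus (median 6.67) and 2.99 to 5.24 in gastrocnemius (median 3.54), against 0 to 0.532 in vastus intermedius and 0 to 0.424 in vastus lateralis. In adults it gave 20 counts over the 12 shank libraries and 0 over the 11 thigh libraries, which with a floor of 3 counts over the group is at least 6.46-fold higher in the shank. The E18.5 difference of -4.99 passed (adjusted p = 2.62e-08) and the adult one did not (adjusted p = 0.0828), so at this depth its adult contrast was not told. The annotated spans of Hoxd10 and Hoxd11 overlap, and their reads can be shared.

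In the HoxA cluster fewer members passed in adults than at E18.5. Of 12 tested members 5 were higher and 4 lower in the thigh at E18.5, while 0 were higher and 3 lower in adults. Over all genes 13.2% were higher and 4.48% lower at E18.5, and 10.2% and 9.61% in adults. The adult count of 0 was also found with DESeq2 and limma-voom, and 2 members were higher at an unadjusted p under 0.05 in edgeR. Without E18.5 collection F 2 members were higher at E18.5. The lasting members were the distal Hoxa11 (-1.20 at E18.5 and -1.31 in adults), Hoxa13 (-2.18 and -2.04) and the antisense transcript Hoxa11os (-1.19 and -1.49), whose reads cannot be told from those of Hoxa11. Members lost were Hoxa4 (0.75 at E18.5, adjusted p = 0.00188, and -0.33 in adults, adjusted p = 0.243), Hoxa6 (0.99 and -0.52) and Hoxa10. Hoxa3, Hoxa5 and Hoxa7 were higher in the E18.5 thigh by 0.65, 0.79 and 0.71 and did not pass in adults, with no called stage difference.

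Hoxa10, a gene of the thigh and upper limb field, lost a shank-high contrast. At E18.5 it ran from 26.3 to 35.7 CPM in soleus (median 29.9) and 27.9 to 33.9 in gastrocnemius (median 30.8), against 15.3 to 22.9 in vastus intermedius (median 19.9) and 15.6 to 25.7 in vastus lateralis (median 24.4). In adults the medians were 14.7 CPM in soleus, 22.6 in gastrocnemius and 20.8 in vastus lateralis, and vastus intermedius was 13.9, 14.1, 14.4, 15.3 and 15.6. The segments were apart at E18.5 and overlapped throughout in adults, where the medians of gastrocnemius and vastus lateralis were above those of soleus and vastus intermedius. The difference went from -0.53 (adjusted p = 3.36e-06) to -0.02 (adjusted p = 0.905), and the stage difference passed (adjusted p = 0.00304). In the HoxB cluster 1 of 8 tested members was higher at E18.5 (12.5%, beside 13.2% over all genes), Hoxb2 at 0.85 (adjusted p = 0.0398). None passed in adults, also at an unadjusted p and with DESeq2 or limma-voom.

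Among 34 tested T-box and homeobox factors of limb identity 9 were higher and 6 lower in the thigh at E18.5, and 3 were higher and 7 lower in adults. These are 26.5% and 17.6% of the list at E18.5 and 8.82% and 20.6% in adults, beside 13.2% and 4.48%, and 10.2% and 9.61%, over all genes. With all 48 libraries 4 were lasting, and without adult collection D or E 4 were lower in adults. The 7 lasting ones were Tbx1, Tbx2, Tbx4, Tbx5, Tbx15, Hand2 and Meox2. Tbx4, the hindlimb counterpart of Tbx5, was lower in the thigh at both stages (-0.41, adjusted p = 0.03, and -1.05, adjusted p = 5.47e-06), with a stage difference that passed (adjusted p = 0.0428). Its adult medians were 9.16 CPM in soleus, 5.27 in gastrocnemius and 1.77 in vastus lateralis, with 4.43, 4.85, 5.39, 5.88 and 8.00 in vastus intermedius. Tbx15, a T-box factor of fast glycolytic fibres, was higher in the thigh by 0.33 and 0.62, with adult medians of 150 CPM in soleus, 468 in gastrocnemius and 697 in vastus lateralis.

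Hand2, a basic helix-loop-helix factor of the posterior limb bud, was close to a switch. At E18.5 it ran from 0.0678 to 14 CPM in soleus (median 8.00) and 3.54 to 6.26 in gastrocnemius (median 4.63), while the 6 vastus intermedius libraries held 1 count in all and the 6 vastus lateralis libraries at most 0.106 CPM. The segments were apart but for 1 soleus library at 0.0678 CPM. In adults it ran from 0.175 to 0.736 CPM in soleus (median 0.457) and 0 to 0.219 in gastrocnemius (median 0.107), and all 11 thigh libraries were at 0. The adult shank gave 62 counts, at least 20-fold higher than a floor of 3 counts over the 11 thigh libraries. Both stages passed (adjusted p = 4.38e-11 and 0.00531), but the adult call was lost with limma-voom (adjusted p = 0.162), and the fitted adult value is not given because the thigh was at 0. Isl1, Gsc and Dct were also lasting and shank-high at low counts; adult Gsc gave 44 counts in the shank and 2 in the thigh (ratio 21.3, exact 95% interval 5.56 to 181, counting error only), and the adult call of Dct was lost in many alternative fits.

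The other genes of the 25 lay outside the Hox clusters and the T-box family. Pclo, which encodes a scaffold protein of the presynaptic active zone, was higher in the thigh by 1.80 at E18.5 and 1.94 in adults (3.49-fold and 3.84-fold, adjusted p = 2.96e-06 and 5.78e-05). Its E18.5 thigh libraries ran from 1.57 to 4.83 CPM and its shank libraries from 0.294 to 1.24, without overlap. Adult vastus lateralis ran from 2.03 to 8.05 CPM and gastrocnemius from 0.621 to 1.82, whereas vastus intermedius was 0.167, 0.331, 0.373, 0.563 and 1.60 and soleus ran from 0 to 0.471, so the adult segments overlapped and the pairs carried the contrast.

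Gpx3, a secreted glutathione peroxidase, had medians at E18.5 of 22.1 CPM in soleus, 27.3 in gastrocnemius, 35.3 in vastus intermedius and 40.8 in vastus lateralis. Adult medians were 77.6 CPM in soleus, 127 in gastrocnemius and 244 in vastus lateralis, and vastus intermedius was 138, 143, 163, 170 and 244. Its difference was 0.61 ± 0.11 at E18.5 and 1.02 ± 0.11 in adults (1.53-fold and 2.03-fold, adjusted p = 2.71e-05 and 2.84e-09). Ptges3l, Ank1, Sar1b, Hras, Plcl2, Jph2, Pals2, Zftraf1, Ecpas, Ctsd and Ube3c differed by 0.19 to 0.65 at E18.5 and 0.22 to 0.88 in adults. They include the junctional membrane protein Jph2 (0.43 and 0.55), the small ankyrin gene Ank1 (0.59 at both stages), the lysosomal protease Ctsd (0.33 and 0.40) and the GTPase Hras (0.54 at both). In adults each gene from Ptges3l to Ube3c had means rising from soleus to vastus intermedius, gastrocnemius and vastus lateralis. For Jph2 these were 330.5, 524.8, 1242 and 1671 CPM. Adult thigh and shank libraries overlapped for all of these genes. On the shank side were the glutamate receptor subunit Gria4 (-1.77 and -3.00), the inflammatory caspase Casp4 (-1.69 and -1.29) and the zinc finger factor Tshz2 (-0.55 and -0.40).

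Fast sarcomere and glycolytic genes made up a second lasting group, but one that depended on the pair in adults. Of 17 tested fast sarcomere genes 15 were higher in the thigh at E18.5 (88.2%, beside 13.2% over all genes) and 13 in adults (76.5%, beside 10.2%). Lasting genes numbered 13, including Actn3, Mybpc2, Pvalb, Myh4, Tnni2 and Atp2a1. The median log2 difference was 1.18 at E18.5 and 0.90 in adults, beside -0.01 and -0.03 over all tested genes. None of the 13 was called in both pairs at both stages. Summed over the list, the thigh libraries ran from 13914 to 26517 CPM at E18.5 and the shank libraries from 5528 to 16244.

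Actn3, the alpha-actinin of fast fibres, ran at E18.5 from 3.12 to 16.5 CPM in soleus (median 9.48) and 4.32 to 35 in gastrocnemius (median 17.9), against 18 to 203 in vastus intermedius (median 55.3) and 42.2 to 280 in vastus lateralis (median 158). In adults soleus had a median of 9.28 CPM, vastus intermedius was 223, 724, 1374, 1760 and 5072, gastrocnemius had a median of 13326 and vastus lateralis of 19250. Both pairs differed in the fetus, by 3.23 and 3.00, whereas in adults the slower pair differed by 6.52 and the faster pair by 0.59. The averages over the pairs were 3.12 ± 0.44 and 3.56 ± 0.45 (adjusted p = 4.86e-07 and 1.12e-07).

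Myh4, the fast IIb myosin, went from 1.68 to 3.90 with a called stage difference of 2.22 (adjusted p = 0.00059), and its adult value also came from the slower pair (7.46, against 0.34 in the faster pair). Of 26 tested genes of glycolysis and glycogen 24 were higher in the thigh at E18.5 (92.3%, beside 13.2% over all genes) and 19 in adults (73.1%, beside 10.2%). Lasting genes numbered 18, and the list medians were 0.68 and 0.61. Gpd1, a glycerol phosphate dehydrogenase, narrowed from 3.12 to 1.48 (8.71-fold and 2.79-fold, stage difference adjusted p = 0.00118). Its fetal thigh libraries, 16.0 to 143 CPM, did not overlap the fetal shank libraries, 1.51 to 10.9 CPM. Gys1, Gbe1, Fbp2 and Hk2, which store or prime glucose, were lost (2 genes of the list were lost without E18.5 collection A or B, or without adult D, E or F): Gys1 went from 0.74 (adjusted p = 4.31e-07) to 0.06 (adjusted p = 0.755).

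**Figure D4:**
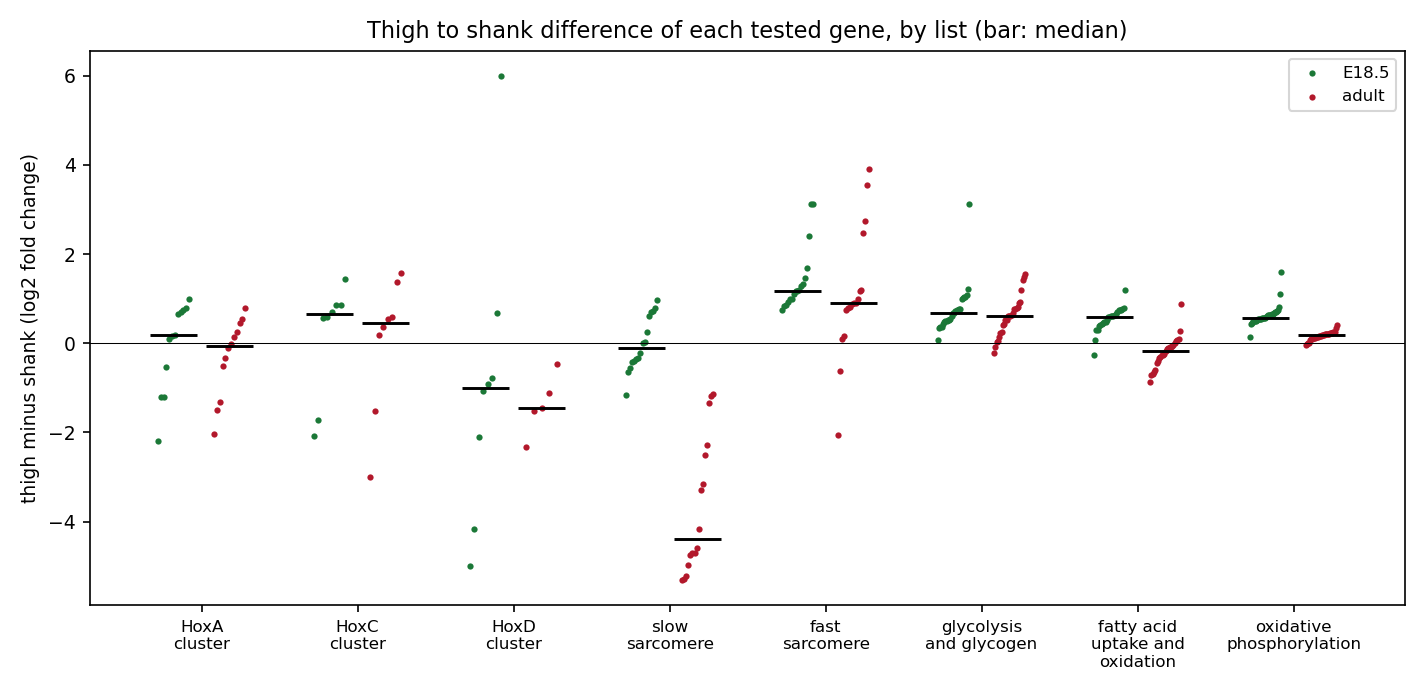
Thigh minus shank difference (log2, vertical axis) of every tested gene in 8 gene lists at E18.5 and in adults, with a bar at the list median; 3 points with a standard error over 1.5 are left out. The slow sarcomere medians move from -0.10 to -4.38, oxidative phosphorylation from 0.58 to 0.18 and fatty acid genes from 0.60 to -0.17, while the fast sarcomere and glycolysis medians stay above 0.

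Most genes of oxidative phosphorylation were higher in the fetal thigh, and fewer passed in adults. Of 34 tested genes of oxidative phosphorylation, the respiratory chain and ATP synthase, 33 were higher in the thigh at E18.5 and 3 in adults. These are 97.1% and 8.82% of the list, beside 13.2% and 10.2% over all genes. The stage difference passed in 26, all towards the shank (8.07% of all genes did). The 25 lost genes included Cox7a1, Cycs, Cyc1, Sdha and Ndufs1, and the median difference went from 0.58 to 0.18. How many were lost depended on the fit: with the animal as a replicate block 20 were higher in adults, which left 13 lost and 20 lasting. With limma-voom 12 were lasting and 21 lost, and without E18.5 collection F the numbers were 12 and 21. Without E18.5 collection C 16 were lost, and with all 48 libraries 12 were lost and 0 were called in adults. The narrowing passed in 12 to 29 genes over these fits, so the contrast shrank in the named direction while a remainder in adults was called or not by the setting.

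Cox7a1, the muscle isoform of a cytochrome oxidase subunit, ran at E18.5 from 1.89 to 8.51 CPM in soleus (median 5.38) and 1.76 to 5.65 in gastrocnemius (median 3.35), against 5.73 to 18.2 in vastus intermedius (median 15.2) and 6.22 to 18.8 in vastus lateralis (median 13.1). In adults soleus ran from 123 to 205 CPM (median 172), gastrocnemius from 124 to 222 (median 165) and vastus lateralis from 137 to 192 (median 183), and vastus intermedius was 239, 262, 289, 332 and 346. Its level was far higher in adults in every muscle, and there only vastus intermedius stood above the rest. The difference went from 1.60 (3.04-fold, adjusted p = 8.61e-08) to 0.41 (1.33-fold, adjusted p = 0.123). Cycs, cytochrome c, went from 1.11 to 0.24, with a stage difference that passed (adjusted p = 7e-05). Its adult values ran from 438 to 612 CPM in vastus intermedius, above the 316 to 380 in soleus. In the faster pair they overlapped, with 303 to 428 CPM in vastus lateralis and 340 to 461 in gastrocnemius.

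Fatty acid uptake and oxidation followed the same course and crossed 0. Of 25 tested genes 18 were higher in the thigh at E18.5, beside 13.2% over all genes. In adults 0 were higher (1 at an unadjusted p under 0.05 in edgeR, 0 with DESeq2 and limma-voom). There 7 were lower, and over all genes 10.2% were higher and 9.61% lower in adults. The stage difference passed in 18 genes, all towards the shank (8.07% of all genes did). The 12 lost genes include Acsl1 (1.19 to -0.27), Acadvl (0.79 to -0.10) and Hadh (0.76 to -0.04), and the 3 reversed genes were Lpl (0.74 to -0.87), Acadm (0.75 to -0.40) and Hadhb (0.62 to -0.32). The number lower in adults was 4 without adult collection B, C or E. The median went from 0.60 to -0.17.

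Rpl3l, the muscle-specific ribosomal protein paralog that follows fibre maturation, had the same form on a larger scale. Fetal values ran from 0.690 to 3.09 CPM in soleus (median 2.00) and 0.254 to 2.39 in gastrocnemius (median 1.18), against 2.38 to 21.1 in vastus intermedius (median 16.4) and 3.18 to 18.8 in vastus lateralis (median 12.6). In adults the medians were 287 CPM in soleus, 553 in gastrocnemius and 527 in vastus lateralis, and vastus intermedius was 342, 388, 462, 490 and 496. The fetal segments differed 8.30-fold (3.05 ± 0.28, adjusted p = 6.69e-11) and overlapped in a few libraries, and the adult difference was 0.29 ± 0.23 (adjusted p = 0.433). Aqp4, the water channel of fast fibres, went from 3.24 ± 0.38 (9.44-fold) to -0.26 ± 0.30, with a stage difference of -3.50 (adjusted p = 2e-06). Its adult average joins opposite differences, 1.10 in the slower pair (adjusted p = 0.0637) and -1.62 in the faster (adjusted p = 0.0128). Myh8, the perinatal myosin, went from 1.21 to -0.24.

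Some lost genes were patterning genes. Alx4, a paired-type homeobox factor of the anterior limb bud, ran at E18.5 from 2.02 to 7.89 CPM in soleus (median 3.56) and 1.03 to 2.06 in gastrocnemius (median 1.34), against 7.67 to 14.5 in vastus intermedius (median 10.5) and 8.81 to 21.6 in vastus lateralis (median 13.9). Adult values ran from 0.349 to 1.58 CPM in soleus, 0.523 to 2.26 in gastrocnemius and 0.339 to 1.61 in vastus lateralis, and was 0.437, 0.563, 0.725, 1.12 and 1.32 in vastus intermedius. A low level common to all 4 adult muscles replaced the fetal contrast. Its contrast went from 2.28 ± 0.22 (4.86-fold, adjusted p = 3.16e-10) to -0.29 ± 0.27 (adjusted p = 0.508), and the stage difference was -2.57 (adjusted p = 1.39e-06).

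Gdf6, a bone morphogenetic ligand of joints, was lost on the shank side. At E18.5 it ran from 0.484 to 2.33 CPM in soleus (median 1.06) and 1.45 to 4.68 in gastrocnemius (median 3.03), against 0.0947 to 0.533 in vastus intermedius (median 0.315) and 0 to 0.854 in vastus lateralis (median 0.198). Adult medians were 0.312 CPM in soleus, 0.403 in gastrocnemius and 0.599 in vastus lateralis. The difference went from -2.72 ± 0.38 (6.60-fold, adjusted p = 4.86e-07) to 0.53 ± 0.43 (adjusted p = 0.424). The spalt factor Sall4 gave 58 counts in the fetal thigh and 3 in the fetal shank (ratio 18.3, exact 95% interval 5.97 to 91.5, counting error only), and its stage difference was lost without E18.5 collection E (adjusted p = 0.0634). Fam240a gave 65 counts in the fetal thigh and 0 in the shank (at least 20.5-fold), Slc15a5 gave 53 and 0 (at least 16.7-fold), and the opsin gene Opn1mw differed by 4.75 at E18.5 and 0.43 in adults. Adult Slc15a5 differed by 1.35 in the slower pair and by -1.97 in the faster (adjusted p = 0.00361 and 0.000129). The stage difference of Fam240a was lost without E18.5 collection B.

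**Figure D5:**
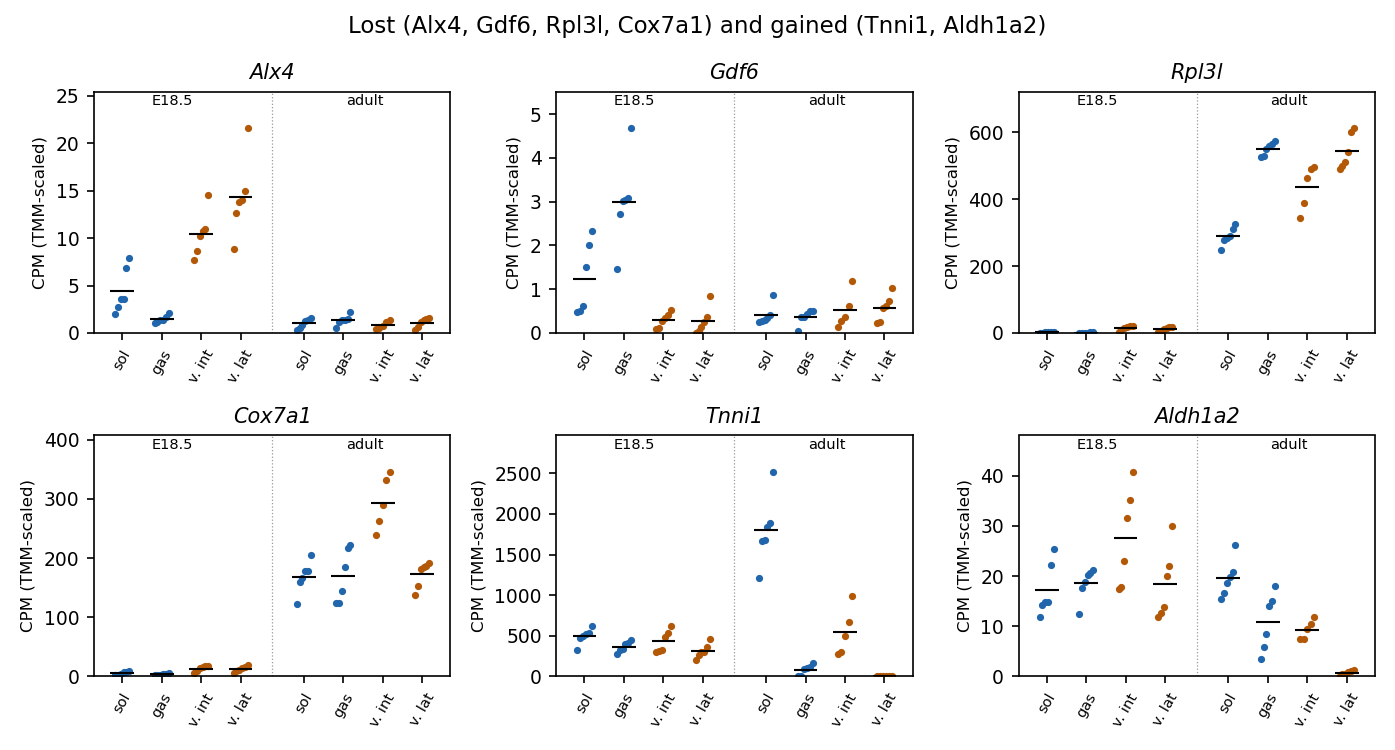
CPM of 6 genes with a contrast at 1 stage (vertical axis) in each library by stage and muscle (horizontal axis), thigh muscles in orange, shank muscles in blue, with a bar at the group mean. At E18.5 the thigh medians of Alx4, Rpl3l and Cox7a1 are above the shank medians and those of Gdf6 below, with some libraries of the segments overlapping, and in adults Tnni1 and Aldh1a2 are lowest in vastus lateralis.

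Genes gained after birth were led by the slow sarcomere. Of 16 tested slow sarcomere genes 3 were higher and 1 lower in the thigh at E18.5 (18.8% and 6.25%, beside 13.2% and 4.48% over all genes). In adults 15 were lower (93.8%, beside 9.61%). The stage difference passed in 15, all towards the shank, and 11 were gained. With all 48 libraries 1 was higher at E18.5. The list median went from -0.10 to -4.38. Adult differences ran from -5.31 for Myl2 to -1.14 for Myl6b, and Myh7, Myl3, Tnnt1, Tnnc1, Tnni1 and Myoz2 lay between -5.28 and -4.59. The adult gap was mainly that between gastrocnemius and vastus lateralis, where Myl2 differed by -8.95, whereas in the slower pair it differed by -1.68. With limma-voom the stage difference passed in 8 of the 16 genes, and those of Myh7, Myh6, Myl2, Myl3, Tnnc1 and Tnni1 did not (adjusted p from 0.0519 for Tnni1 to 0.367 for Myh6).

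Tnni1, slow troponin I, ran at E18.5 from 327 to 623 CPM in soleus (median 513) and 282 to 449 in gastrocnemius (median 371), against 303 to 624 in vastus intermedius (median 406) and 204 to 462 in vastus lateralis (median 302). In adults soleus ran from 1207 to 2522 CPM (median 1761) and gastrocnemius from 1.59 to 172 (median 98.9), vastus intermedius was 272, 297, 497, 671 and 994, and vastus lateralis ran from 0 to 1.38 (median 0). All fetal groups overlapped, and in adults the order was soleus, vastus intermedius, gastrocnemius and vastus lateralis, with no overlap between neighbours. The difference went from -0.22 ± 0.34 (adjusted p = 0.726) to -4.71 ± 0.47 (adjusted p = 7.12e-10). Myh7 in adult gastrocnemius ran from 15.2 to 1467 CPM and so varied widely between animals. The myosin genes are close copies of one another, and reads that match several of them make their counts uncertain.

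The promoter windows of Cox7a1 (lost) and Tnni1 (gained) are shown as examples of the 2 metabolic and contractile groups, from the same table and with capitals at CANNTG. Cox7a1 lies on the plus strand at chr7:30183921-30184170 and Tnni1 on the plus strand at chr1:135799171-135799420, within the annotated span of its longer transcript.
Cox7a1: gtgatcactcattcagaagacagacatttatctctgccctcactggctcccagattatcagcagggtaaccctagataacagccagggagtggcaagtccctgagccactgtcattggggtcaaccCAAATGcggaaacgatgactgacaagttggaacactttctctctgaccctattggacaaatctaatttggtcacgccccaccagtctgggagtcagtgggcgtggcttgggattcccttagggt
Tnni1: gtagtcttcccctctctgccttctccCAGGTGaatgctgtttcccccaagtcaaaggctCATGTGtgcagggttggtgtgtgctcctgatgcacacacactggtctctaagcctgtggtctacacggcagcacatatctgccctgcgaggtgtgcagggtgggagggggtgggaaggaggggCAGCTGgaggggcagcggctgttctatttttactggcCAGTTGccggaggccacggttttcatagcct
The Cox7a1 window held 1 match of CANNTG and the Tnni1 window 4, and neither held GGTGTGA. The letters CANNTG stand in most windows of the table, as given for the Hox promoters.

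Outside the sarcomere, gained genes included Aldh1a2, the main enzyme that makes retinoic acid. At E18.5 its medians were 14.9 CPM in soleus, 19.6 in gastrocnemius, 27.2 in vastus intermedius and 17 in vastus lateralis. In adults it ran from 15.4 to 26.2 CPM in soleus (median 19.3) and 3.45 to 18.1 in gastrocnemius (median 11.2), was 7.45, 7.50, 9.37, 10.5 and 11.8 in vastus intermedius, and ran from 0.0640 to 1.39 in vastus lateralis (median 0.663). The fetal groups overlapped, and adult vastus lateralis lay below every other muscle. Its contrast went from 0.33 (adjusted p = 0.252) to -2.52 (5.72-fold, adjusted p = 4e-10), and the stage difference passed (adjusted p = 2.51e-08). Of 14 tested retinoic acid genes 1 was higher and 3 lower at E18.5 (7.14% and 21.4%, beside 13.2% and 4.48% over all genes). With the replicate block 5 were lower at E18.5. In adults 2 were higher and 2 lower (14.3% each way, beside 10.2% and 9.61% over all genes). Aldh1a3 lasted (-0.83 and -0.89), and Aldh1a1 and Rbp4 were gained on the thigh side (0.67 and 1.15 in adults).

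Pax3, a paired box factor of muscle progenitors, was gained on the thigh side at low counts. It was at most 0.370 CPM in any E18.5 library. In adults all soleus libraries were at 0, gastrocnemius ran from 0 to 0.683 CPM (median 0.118), vastus intermedius was 0, 0.160, 0.221, 0.250 and 0.291, and vastus lateralis ran from 0.395 to 5.44 (median 2.61). Adult vastus lateralis thus had the highest Pax3, and vastus intermedius gave 15 counts against 0 in soleus (at least 6.00-fold). The adult contrast passed (adjusted p = 0.00119), and so did the stage difference (adjusted p = 0.00859). Of 17 tested satellite cell and myogenic genes 1 was higher and 1 lower at E18.5, and 4 were higher and 3 lower in adults. These are 5.88% each way at E18.5, beside 13.2% and 4.48% over all genes, and 23.5% and 17.6% in adults, beside 10.2% and 9.61%. The number lower at E18.5 was 6 with DESeq2, 7 with limma-voom, 4 with upper-quartile or RLE scaling, 5 with the replicate block and 7 at an unadjusted p under 0.05 in edgeR. The number lower in adults was 5 with the replicate block and 1 with all 48 libraries. Myod1, a myogenic factor of fast muscle, was gained (-0.34 to 0.85, stage difference adjusted p = 1.5e-05), and Myf6 was lost (0.65 to 0.06). Further gains on the thigh side were the thick-filament protein Mybph (-0.04 to 3.29), the calcium-sensing receptor Casr (-0.32 to 2.67) and the protease Pappa2 (-0.67 to 4.27). Mymx, a fusion peptide gene, gave only 16 and 2 adult counts (ratio 8.26, exact 95% interval 1.94 to 74.0), and its call was lost in several fits, as were those of Gpr50 and Aard.

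Reversed genes numbered 140 (78 with all 48 libraries), and 5 of them passed in both pairs at both stages: Itga4, Tnik, Slc16a1, Tmem132b and Adprhl1, named after their values were seen. Itga4, an integrin alpha chain, ran at E18.5 from 28.4 to 51.2 CPM in soleus and 27.2 to 51.5 in gastrocnemius, against 18 to 25 in vastus intermedius and 19.3 to 29.5 in vastus lateralis. In adults soleus ran from 1.86 to 3.50 CPM and gastrocnemius from 7.45 to 17.9, vastus intermedius was 2.56, 2.75, 2.98, 4.63 and 9.25, and vastus lateralis ran from 23.3 to 51.5. The fetal shank was the higher segment, and in adults vastus lateralis stood above all others. The difference went from -0.81 (1.75-fold, adjusted p = 5.62e-05) to 1.16 (2.24-fold, adjusted p = 2.79e-06), a stage difference of 1.97 (adjusted p = 5.79e-08).

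Slc16a1, the monocarboxylate transporter MCT1 of oxidative fibres, went the other way, from 0.62 (adjusted p = 8.46e-06) to -0.76 (adjusted p = 6.05e-07). Its fetal medians were 30.4 CPM in soleus, 24.4 in gastrocnemius, 42.6 in vastus intermedius and 38.5 in vastus lateralis. Adult medians were 313 CPM in soleus, 97.5 in gastrocnemius and 48.1 in vastus lateralis, and vastus intermedius was 205, 211, 226, 250 and 304. Tmem132b had the widest reversal of the 5, from -3.89 to 4.17. Myh2, the fast oxidative IIa myosin, went from 1.28 (adjusted p = 0.000161) to -2.05 (adjusted p = 2.72e-07), and the adult value came from the faster pair (-4.73, against 0.62 in the slower). Cdh4, a cadherin, went from -0.86 to 2.08, and the Wnt modulator Dkk3 from -0.89 to 1.01, the latter not called as a stage difference with limma-voom (adjusted p = 0.0582). Prrx1, a homeobox factor of limb connective tissue, went from 0.35 (adjusted p = 0.00972) to -0.56 (adjusted p = 0.000102), with adult medians of 223 CPM in soleus, 113 in gastrocnemius and 77.7 in vastus lateralis.

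In the Wnt and the BMP lists the adult calls were mostly lower in the thigh. Of 37 tested Wnt genes 3 were higher and 6 lower at E18.5, and 3 were higher and 9 lower in adults. The adult shares were 8.11% higher and 24.3% lower, beside 10.2% and 9.61% over all genes. At E18.5 the shares were 8.11% and 16.2%, beside 13.2% and 4.48%. The number lower at E18.5 was 2 with all 48 libraries, 3 without E18.5 collection A or B, 2 without C and 10 with limma-voom. Wnt4 lasted on the thigh side (1.64 and 1.06) and the receptor Fzd1 on the shank side (-0.39 and -0.70), while Wnt16, Rspo3, Fzd9, Fzd10 and Axin2 were gained on the shank side. Of 38 BMP, GDF and Fgf genes 2 were higher and 3 lower at E18.5, and 3 were higher and 9 lower in adults. These are 5.26% and 7.89% of the list at E18.5 and 7.89% and 23.7% in adults. The modulator Bmper lasted (-0.86 and -0.48). Of 53 axon guidance and adhesion genes 4 were higher and 7 lower at E18.5, and 5 were higher and 6 lower in adults. The adult shares of 9.43% and 11.3% lay near those over all genes. At E18.5 the shares were 7.55% and 13.2%, beside 13.2% and 4.48%. The number lower at E18.5 was 3 without E18.5 collection C, 4 without A or B, 4 with all 48 libraries and 15 with limma-voom, and the number lower in adults was 3 without adult collection E and with all 48 libraries. Plxna4, a semaphorin receptor, was lost (1.26, adjusted p = 1.95e-08, to -0.07), and Sema3f lasted at -0.34 and -0.41. Among 11 Meis, Pbx and Irx factors Irx3 lasted (1.02 and 0.59).

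Among markers of other cells tendon genes had the most calls. Of 12 tested tendon genes 2 were lower in the thigh at E18.5 and 6 in adults; the adult count was 10 with the replicate block, 11 without adult collection C and 3 with all 48 libraries. Scx (-0.68 and -1.08) and Mkx (-1.44 and -1.74), which encode tendon transcription factors, lasted. Summed over the list, adult thigh libraries ran from 46.0 to 1108 CPM and adult shank libraries from 167 to 815, and the part of tendon tissue in the shank-high genes, Hox genes included, was not tested. Of 14 fibroblast markers 2 were higher at E18.5 (14.3%), and 1 was higher and 1 lower in adults (7.14% each way), near the shares over all genes. The number of fibroblast markers lower in adults was 6 with limma-voom, 5 without adult collection C, 3 without B and 5 at an unadjusted p under 0.05 in edgeR. Of 13 endothelial and 12 leukocyte markers 0 passed at either stage in edgeR or DESeq2. With limma-voom 1 of each was higher at E18.5. At an unadjusted p under 0.05 in edgeR 1 endothelial and 3 leukocyte markers were higher in the fetal thigh, and 0 and 3 were lower in the adult thigh. Of 12 pericyte markers 2 were higher at E18.5 (16.7%) and 1 lower in adults (8.33%). Of 10 Schwann cell markers 1 was lower at E18.5 and 2 were higher in adults, with adult sums of 74.3 to 344 CPM in the thigh and 40.1 to 704 in the shank. Of 10 adipocyte markers 1, Car3, was lower in adults, of 6 keratinocyte markers 3 were lower in adults, and of 7 muscle spindle markers, which share Myh6 and Myl2 with slow fibres, 1 was higher and 2 lower in adults. These 3 lists had 0 calls at E18.5 in edgeR, where 3 adipocyte and 1 keratinocyte marker were higher and 1 spindle marker lower at an unadjusted p under 0.05. DESeq2 called 3 adipocyte, 1 keratinocyte and 1 spindle marker at E18.5, and limma-voom called 2 spindle markers. Of 5 tested red cell genes 1, Hba-a2, was higher in the fetal thigh (4 at an unadjusted p under 0.05), and their sum ran from 57.3 to 948 CPM in the fetal thigh and 60.8 to 209 in the fetal shank; the part of blood in the fetal contrasts was not tested. Of 13 immediate early genes, which dissection stress can induce, 2 were higher at E18.5 (0 with all 48 libraries) and 2 lower in adults. These are 15.4% at each stage, beside 13.2% and 9.61% over all genes. Of 14 neuromuscular junction genes 1 was higher and 1 lower at E18.5 (7.14% each way), and 3 were higher and 5 lower in adults (21.4% and 35.7%). The receptor subunits Chrna1 (-0.32 and -0.66) and Chrne (1.62 and 0.50) lasted, though with all 48 libraries 0 of the list did.

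The authors' deposited table of the E18.5 thigh and shank comparison called 4115 genes, of which 2769 were also called here, and their adult table called 231, of which 223 were called here. In the authors' deposited tables Tbx5 had log2 fold changes of 4.77 and 4.02, Hoxd10 of -4.15 and -2.45 and Hoxc11 of -1.70 and -1.47. Hand2 had -8.78 and -4.59 there, with no adjusted p in adults. The sources used here do not say which libraries entered those tables.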

How the data were processed

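Messenger RNA libraries (poly(A) selected, random primed, RNA integrity number above 7, per the labels' protocols) were sequenced from 4 muscles at 2 stages. The authors deposited raw read counts per gene, made with FastQC 0.11.5, Trimmomatic 0.39.0, STAR 2.7.11 and featureCounts of Subread 2.0.6 on build mm10, per the submitters' processing notes. No annotation or strand setting is named in the sources, and overlapping, antisense or near-identical genes can share reads. The authors' deposited comparison tables list for each gene a log2 fold change and an adjusted p-value from DESeq2 1.44.0, per the submitters' processing notes. Symbols came from those tables for 18780 identifiers and from RefSeq (GRCm38.p6) for 6501, and 1898 had none.

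The counts were tested in edgeR 4.0.16 (R 4.3.3; TMM, filterByExpr, quasi-likelihood F test, Benjamini-Hochberg over 16402 genes, threshold 0.05) in 1 fit of 8 groups, and CPM are TMM-scaled. Bounds and ratios for genes near 0 use raw counts over library totals, with a floor of 3 counts over the group. Totals of 14.9 to 32.4 M counts put 3 counts at 0.0926 to 0.201 CPM per library, and every pair of libraries within a group differed by more than sampling noise (lowest chi-square per degree of freedom 10.8). Alternatives were all 48 libraries, DESeq2 1.42.0, limma-voom (limma 3.58.1), upper-quartile and RLE scaling, no filter, 1 fit per stage, a replicate block, and leaving out each collection.

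The columns carry date tags rather than animal numbers. The labels say that the 4 muscles came from the same animals, and each tag has 1 library of each muscle, so the tag (collections A to F of each stage) was used as the animal. Deviations from group means correlated by 0.141 on average within E18.5 collections and 0.071 within adult ones, against -0.028 and -0.014 between collections. Collections hold thigh and shank alike, while the dates differ between stages.

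Named genes were the 10 lasting genes and the 8 lost and 8 gained genes with the largest differences in each direction, the 5 reversed genes each way, the 25 called in both pairs, and members of gene lists. The members and lists were chosen with earlier results of these data known. Values of some members are not reported here. Scripts were tested on simulated data.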

Additional observations from a re-analysis of the deposited data

Results flagged for a closer look

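The contrast between thigh and shank differed between the stages, by the test of the stage difference, in 45 genes, taken from those with the largest differences in each class and the 25 called in both pairs. Values are the adult contrast less the E18.5 contrast on the log2 scale. Among lost genes higher in the fetal thigh it was -7.46 for Fam240a, -5.14 for Slc15a5, -4.32 for Opn1mw, -3.26 for Sall4, -3.50 for Aqp4, -3.02 for 2310016D03Rik, -2.77 for Rpl3l and -2.53 for Trhde. Among lost genes lower in the fetal thigh it was 3.25 for Gdf6, 3.11 for Nek5, 2.14 for Clic6, 3.21 for Fgf4, 2.13 for Csmd1, 1.65 for Gpnmb, 1.39 for Bmp7 and 1.78 for Tmem184a. Fitted sizes of genes with an arm near 0 counts, such as Fam240a, Slc15a5 and Sall4, depend on the prior count.

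Among genes gained on the thigh side it was 4.99 for Pax3, 4.94 for Pappa2, 3.34 for Mybph, 3.39 for Mymx, 2.55 for Gpr50, 2.38 for Aard, 2.60 for 4933401D09Rik and 2.98 for Casr. Among genes gained on the shank side it was -5.93 for Myl2, -4.95 for Myl3, -4.79 for Myh7, -4.58 for Myh6, -4.40 for Tnnt1, -4.08 for Tnnc1, -4.49 for Tnni1 and -5.29 for Myoz2. Among reversed genes it was -6.06 for Myl10, -3.15 for Dach2, -4.14 for Pcdh15, -2.83 for Gnmt and -3.34 for Myh2, and 8.07 for Tmem132b, 6.80 for Cxcl9, 2.20 for Col4a6, 1.90 for Dkk3 and 2.94 for Cdh4. Of the lasting genes Myh4 differed by 2.22, Hoxd10 by 1.85 and Hoxc8 by 0.71.

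Each group was searched for a single library far from the rest, with a cut-off made for normally distributed values. CPM of so few libraries, some of them near 0, can depart from that. How many groups chance would flag here is therefore not known. Such a library was found in 25 of 274 groups tested over 35 genes. In adult vastus intermedius these were Hoxd10 at 1.17 CPM, Hoxd9 at 5.83, Isl1 at 0.276 and Pclo at 1.60. In adult vastus lateralis they were Myh7 at 9.44, Myl2 at 2.69 and Gpd1 at 1958, and in adult soleus Hoxc8 at 3.78, Gdf6 at 0.869 and Pclo at 0.471. In adult gastrocnemius they were Hoxc6 at 6.56, and low values of Tbx15 at 341 and Gdf6 at 0.0523.

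In E18.5 vastus lateralis they were Hotair at 2.25 CPM, Hoxd11 at 0.424, Hand2 at 0.106, Myh7 at 1158 and Myl2 at 302. In E18.5 vastus intermedius they were Hand2 at 0.0313, Pax3 at 0.191, Pclo at 4.40 and a low Gpx3 at 23.2. In E18.5 soleus Hoxa13 reached 7.17, and in E18.5 gastrocnemius Pax3 reached 0.185 and Itga4 51.5. The library labelled adult vastus intermedius that was left out held Myh3 at 8923 CPM.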

How the results depend on the processing

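The 82 named values were recomputed under 19 settings, which gave 1558 values: 1449 kept their side of the threshold, 109 lost it and 0 changed sign. Gpr50, Nek5, Tmem184a, Dct, Fgf4, Bmp7, Aard, Gpnmb and Clic6 lost their call most often. With all 48 libraries 1863 genes were called at E18.5, 307 were lasting and 78 were reversed. Leaving out 1 collection gave 2206 to 3122 calls at E18.5, 2079 to 3470 in adults, 1349 to 1853 stage differences, 577 to 897 lasting, 527 to 738 lost and 480 to 896 gained genes, with the lowest adult and gained numbers without adult collection E. With the replicate block, which pairs the muscles of an animal, the numbers were 3442, 3876, 2268, 1130, 822 and 909, none of these 6 over 1.5 times away, while it moved the number of genes called in both pairs at both stages from 25 to 46, and the oxidative phosphorylation, tendon, satellite cell and retinoic acid counts as given above. The cause of these shifts was not tested. Low counts limit Hand2, Hoxd11, Pax3, Gsc, Dct and Sall4, for which a fitted size is uncertain.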
